A study of Drosophila melanogaster with 3 samples.

Results

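The 695 regions described here were peaks of Pointed-eGFP chromatin immunoprecipitation that stood high in the peak list of replicate 2 and not in those of the other replicates. They were selected on peak signal. The 3646 rows of highest signal, as many as the optimal list holds, were taken from the relaxed peak list of each replicate, and the 695 are the replicate 2 rows among them that shared no base with the 3646 rows of replicate 1 or of replicate 3. They made up 695 of the 3646 rows taken from replicate 2, whose relaxed list held 30000 rows in all. The other 2951 rows, called shared below, overlapped a row of at least 1 of the other replicates. Set against replicate 3 only, without replicate 1, the same rule gave 1471 rows, and set against replicate 1 only it gave 808.

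All 3 biological replicates belonged to 1 group and no second condition was included. Each was a pool of male and female Drosophila melanogaster embryos, 0 to 24 h old, of the line pnt-MiMIC-GFP, which carries an eGFP exon inside an intron of pnt and so makes a Pointed-eGFP fusion from the gene's own locus. Precipitation was with an anti-GFP antibody, and whole embryos were used, so peaks cannot be assigned to a tissue or an hour of development. A relaxed list holds strong peaks and background alike, as input for the irreproducible discovery rate procedure. The read depth of each library is unknown, and the signal of a peak is in the authors' units, whose scale is not given in the sources used here.

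Pointed is an ETS-domain transcription factor and a nuclear effector of receptor tyrosine kinase signalling. MAP kinase, activated through the EGF and FGF receptors, phosphorylates one isoform of Pointed and inactivates the ETS repressor Yan, encoded by aop, which competes for the same sites. ETS domains bind sequences built around a GGAA core, often CCGGAA or CAGGAA. In the embryo the pathway is known for roles in the ventral ectoderm, the midline glia, the trachea, the heart and the nervous system.

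The sequences around the summits show what the strongest of these regions look like. The 8 of highest signal outside the right arm of the second chromosome are given first, then the strongest of those in coding sequence and the strongest of those with no overlapping row in the relaxed list of replicate 1 or 3, from the same arms. Each is the plus strand of the Release 6 sequence (build dm6), 201 bases centred on the summit, with GGAA and its reverse complement TTCC in capitals. In order they are 2L:3348241-3348441, X:17683107-17683307, 3L:4071063-4071263, 3L:3080774-3080974, X:14622316-14622516, X:2122051-2122251, 2L:14160953-14161153, 2L:18899931-18900131, 3R:17886385-17886585 and 3R:22886872-22887072.
E23: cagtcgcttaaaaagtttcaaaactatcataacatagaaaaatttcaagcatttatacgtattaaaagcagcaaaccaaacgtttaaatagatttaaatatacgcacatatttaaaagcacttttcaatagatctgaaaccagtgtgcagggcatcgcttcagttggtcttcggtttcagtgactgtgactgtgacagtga
chas: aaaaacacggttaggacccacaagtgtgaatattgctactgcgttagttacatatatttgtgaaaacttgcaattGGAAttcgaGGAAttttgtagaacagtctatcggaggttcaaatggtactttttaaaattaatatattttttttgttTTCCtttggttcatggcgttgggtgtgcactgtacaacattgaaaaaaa
wit: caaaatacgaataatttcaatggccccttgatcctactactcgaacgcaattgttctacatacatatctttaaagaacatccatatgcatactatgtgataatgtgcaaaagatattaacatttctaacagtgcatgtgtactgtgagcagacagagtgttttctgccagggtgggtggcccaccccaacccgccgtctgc
PAN3: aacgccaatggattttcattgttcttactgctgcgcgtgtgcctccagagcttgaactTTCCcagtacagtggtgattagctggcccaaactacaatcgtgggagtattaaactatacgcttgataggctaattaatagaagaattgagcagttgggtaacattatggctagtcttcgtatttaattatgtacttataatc
NetA intron: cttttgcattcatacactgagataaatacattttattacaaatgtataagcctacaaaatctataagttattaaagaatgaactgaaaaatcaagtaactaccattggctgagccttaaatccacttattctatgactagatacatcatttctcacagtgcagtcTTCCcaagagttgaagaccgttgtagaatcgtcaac
ph-d: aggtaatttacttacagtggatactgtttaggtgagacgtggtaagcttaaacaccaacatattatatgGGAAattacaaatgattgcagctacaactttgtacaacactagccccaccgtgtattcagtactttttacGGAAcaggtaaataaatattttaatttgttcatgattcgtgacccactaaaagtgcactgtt
CG43332: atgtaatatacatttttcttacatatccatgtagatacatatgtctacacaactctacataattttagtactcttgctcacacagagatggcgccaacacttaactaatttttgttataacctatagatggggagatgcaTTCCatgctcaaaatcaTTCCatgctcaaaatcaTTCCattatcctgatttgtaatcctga
lncRNA:CR44739: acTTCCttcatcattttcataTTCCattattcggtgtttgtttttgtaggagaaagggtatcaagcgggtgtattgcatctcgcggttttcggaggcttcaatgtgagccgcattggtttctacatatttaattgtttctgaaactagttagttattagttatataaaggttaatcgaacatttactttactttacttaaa
Rim coding sequence: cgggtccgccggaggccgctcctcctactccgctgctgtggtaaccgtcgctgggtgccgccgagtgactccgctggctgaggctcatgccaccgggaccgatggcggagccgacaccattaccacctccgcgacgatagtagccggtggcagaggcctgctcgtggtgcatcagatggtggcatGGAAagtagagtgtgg
klg: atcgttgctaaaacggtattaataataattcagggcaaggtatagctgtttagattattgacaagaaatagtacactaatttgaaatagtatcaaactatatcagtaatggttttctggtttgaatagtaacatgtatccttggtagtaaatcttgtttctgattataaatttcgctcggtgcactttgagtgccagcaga
None of the 10 windows held CCGGAA or CAGGAA on either strand. The window at chas, and that at CG43332, held 3 GGAA cores each, and those at E23, wit and klg held 0. The Rim window stands apart in base composition, with 66.2% G and C against 32.3% to 42.3% in the other 9.

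The strongest of the 695 lay in an intron of E23, an ecdysone-inducible ABC transporter gene, 6488 bp from the nearest transcription start site (TSS). Its signal was 71.3 in replicate 2 (rank 1092 of 30000), 30.8 in replicate 1 (rank 3920) and 37.5 in replicate 3 (rank 3689). The peak thus fell just outside the 3646 rows in both other replicates. The next, 285 bp from the TSS of chas, had signals of 66.6 in replicate 2 (rank 1202), 25.7 in replicate 1 (rank 5047) and 32.2 in replicate 3 (rank 4794). The third was intergenic, 1263 bp from gol, which encodes a RING-finger ubiquitin ligase, with 66.0 in replicate 2 (rank 1223), 32.4 in replicate 1 (rank 3684) and 25.5 in replicate 3 (rank 7221). Signals of different lists may be on different scales, so ranks are the safer comparison.

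The fourth lay in an intron 554 bp from a TSS of wit, the type II receptor for BMP ligands, and ranked 1295, 3675 and 4970 in replicates 2, 1 and 3. The fifth was intronic in PAN3, a subunit of a poly(A) nuclease complex, and ranked 1320, 7456 and 7994 in the same order. The sixth lay in an intron of NetA, a netrin axon guidance cue, with sbm as the nearest TSS at 19836 bp, and ranked 1374, 3739 and 4552. The seventh, 359 bp from the TSS of the Polycomb group gene ph-d, ranked 1440, 3723 and 7595. The eighth, 2169 bp from CG43332, and the ninth, 463 bp from lncRNA:CR44739, ranked 1446 and 1451 in replicate 2. All 9 overlapped a peak of the optimal list. The tenth did not. It lay in an intron of MSAmiP, 4794 bp from a TSS of the Hox gene abd-A (3R:16834665-16835020), and ranked 1507 in replicate 2, 8107 in replicate 1 and 28616 in replicate 3.

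As a whole the 695 came from the lower part of the replicate 2 rows. Signals lay between 29.8 and 71.3 (median 33.6) and ranks between 1092 and 3640 (median 3050), while the shared rows had a median signal of 58.5 and a median rank of 1485. None stood in ranks 1 to 1000, 50 in ranks 1001 to 2000, 274 in ranks 2001 to 3000 and 371 in ranks 3001 to 3646. These values are what the rule selected on. Just inside the limit, the lowest was at CG15890 with a signal of 29.80 (rank 3640). Just outside it stood rows at Dscam3 with 29.77 (rank 3647) and lncRNA:CR43334 with 29.766 (rank 3648). In replicate 1 the limit was a signal of 32.673, and the row behind the region at lncRNA:CR46450 missed it with 32.658 (rank 3649). In replicate 3 the limit was 37.745, and the row behind that at PIP82 missed it with 37.691 (rank 3655).

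The authors' significance column showed where this limit fell in each list. At rank 3646 the −log10 q-value was 2.54 in replicate 1, 3.89 in replicate 3 and 1.16 in replicate 2. All 1125 rows that the same rule gave in replicate 3 had this value of 3.89, so the column did not grade them. The highest value was 3.28 among the shared rows of replicate 2 and 3.76 among the 478 rows that the rule gave in replicate 1. All 3646 rows of replicates 1 and 3, and 2801 of those of replicate 2, reached 2. Among the 695 regions the value ran from 1.17 to 3.10 with a median of 1.68, and 237 reached 2. The same rank thus carried a lower significance in replicate 2 than in the other replicates, and the part of this in how many rows were members was not tested.

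The regions were poor in promoters. Of the 695, 117 (16.8%, 95% interval 14.1 to 19.8) had their summit within 500 bp of a TSS, a class called TSS-proximal, against 1363 of the 2951 shared rows (46.2%, 44.4 to 48). The class was not used by the rule, and the intervals do not overlap. Over all bases of the 6 arms analysed the share was 13.6%, just under the interval of the 695. Rows found the same way in the other replicates had larger shares, with 49.0% (44.4 to 53.5) of the 478 of replicate 1 only and 62.6% (59.7 to 65.4) of the 1125 of replicate 3 only. The other rows of the same rank range were TSS-proximal in 46.3% (44.3 to 48.3) for replicate 1 and 52.8% (50.8 to 54.9) for replicate 3. The share of replicate 1 only was thus near that of the other rows of its list. The intervals are exact Clopper-Pearson ones and cover counting error only, since peaks of 1 library are not replicates.

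Introns held 331 of the 695 (47.6%, 43.9 to 51.4) and intergenic sequence 178 (25.6%, 22.4 to 29.0). Among the shared rows these shares were 36.6% and 14.8%. Of all bases, 39.5% were intronic and 27.1% intergenic by the same order of classes. Coding sequence held 45 (6.47%, 4.76 to 8.57), against 8 of 2951 shared rows (0.271%), 7 of 478 in replicate 1 only (1.46%) and 8 of 1125 in replicate 3 only (0.711%). This is still below the 13.9% of bases that are coding. The coding share depended on the rule, with 0 of 273 regions when 1823 rows were taken per replicate, 20.1% when 7292 were taken and 3.13% when replicate 1 was left out of the rule. The remaining 24 comprised 9 summits in 3′ UTRs, 4 in 5′ UTRs and 11 in other exons.

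**Figure D1:**
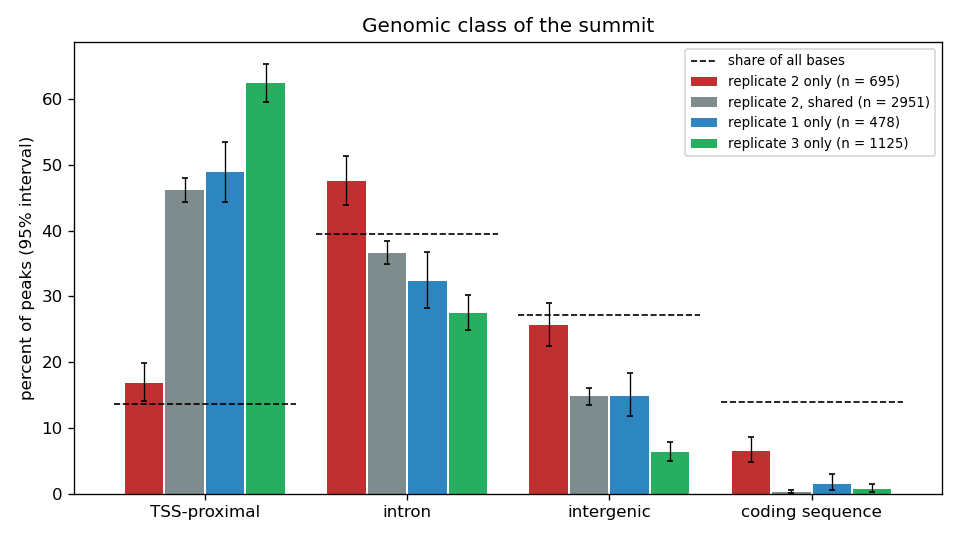
Percent of peaks (vertical axis) whose summit fell in each of 4 genomic classes, for the 695 rows of replicate 2 only, the 2951 shared rows of replicate 2, the 478 of replicate 1 only and the 1125 of replicate 3 only. Error bars are 95% exact intervals and dashed lines the share of all bases. The TSS-proximal bar of replicate 2 only, at 16.8%, is the lowest of the 4, and its coding bar, at 6.47%, the highest.

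The difference was present at equal rank. In ranks 1001 to 2000, 11 of 50 regions (22.0%, 11.5 to 36.0) were TSS-proximal, against 43.5% (40.3 to 46.7) of the shared rows there. In ranks 2001 to 3000 it was 51 of 274 (18.6%, 14.2 to 23.7) against 44.2% (40.6 to 47.9). In ranks 3001 to 3646 it was 55 of 371 (14.8%, 11.4 to 18.9) against 46.9% (40.9 to 53). The shared rows stayed between 43.5% and 50% in all 4 bins. Over the whole rank range of the 695, 1854 shared rows had 44.5% (42.2 to 46.8) TSS-proximal and 0.270% coding summits.

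Coding summits were concentrated at the low ranks. There were 0 of 50 in ranks 1001 to 2000, with an upper limit of 7.11%, 11 of 274 (4.01%, 2.02 to 7.07) in ranks 2001 to 3000 and 34 of 371 (9.16%, 6.43 to 12.6) in ranks 3001 to 3646. Shared rows had under 0.4% in each bin. Beyond the limit the trend went on. Of the 3646 rows next in rank in replicate 2, 2443 had no overlapping row among the first 7292 of replicates 1 and 3, and of these 20.8% (19.2 to 22.5) were coding and 11.7% (10.4 to 13.0) TSS-proximal. The other 1203 of these rows were 4.57% (3.46 to 5.91) coding and 34.7% (32.1 to 37.5) TSS-proximal, so past the limit coding summits were more frequent in rows with an overlap too. By significance, coding summits were 5 of the 237 regions with a −log10 q of at least 2 (2.11%) and 40 of the other 458 (8.73%). TSS-proximal ones were 16.9% and 16.8% of the same sets, so the promoter share differed little across this limit, while by rank it went from 22.0% to 14.8%.

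**Figure D2:**
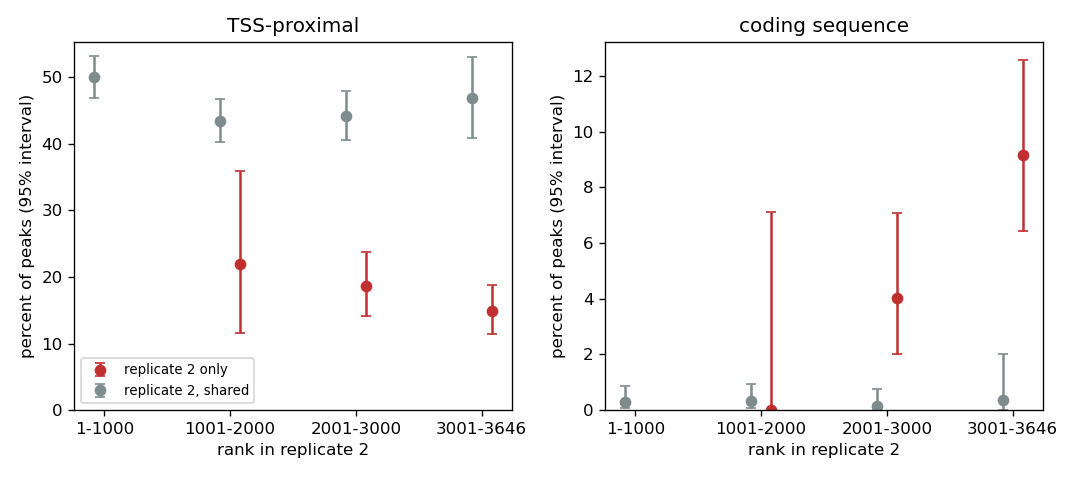
Percent of peaks that were TSS-proximal (left) or in coding sequence (right) by rank in replicate 2, for the rows of replicate 2 only and the shared rows. Points are shares and bars 95% exact intervals. The TSS-proximal shares of the 695, from 14.8% to 22.0%, lie under those of the shared rows in each bin that holds both, and the coding share rises to 9.16% in ranks 3001 to 3646.

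Distance to the nearest TSS showed the same contrast without a fixed window. Its median was 2489 bp for the 695, 635 bp for the shared rows, 724 bp for shared rows of the same rank range, 538.5 bp for replicate 1 only and 161 bp for replicate 3 only. Within 100 bp of a TSS lay 3.17% of the 695 and 15.7% of the shared rows. Even the TSS-proximal summits stood further off, with a median of 234 bp against 141 bp for TSS-proximal shared rows and 62 bp for those of replicate 3 only. Intronic summits had a median distance of 4000 bp, against 2591 bp in shared rows, and intergenic ones 3561.5 bp against 2957 bp.

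**Figure D3:**
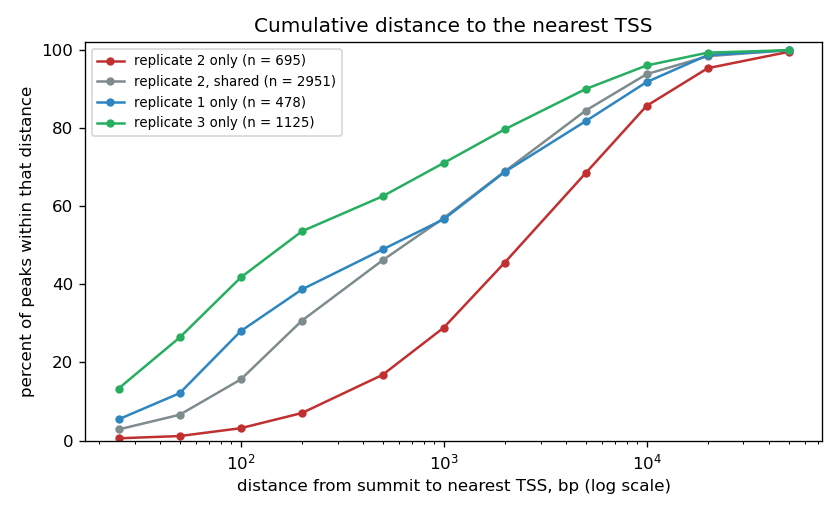
Percent of peaks (vertical axis) with a TSS within the distance on the horizontal axis, in bp on a log scale, for the same 4 sets. The line of replicate 2 only runs lowest at every plotted distance, with 45.6% within 2000 bp against 69.0% of the shared rows.

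The 117 TSS-proximal regions were led by chas and ph-d, described above. The peak 462 bp from a TSS of Ogdh, a subunit of the 2-oxoglutarate dehydrogenase of the citric acid cycle, had a signal of 57.0 (rank 1535) and ranked 6395 in replicate 1 and 14138 in replicate 3. That at Nepl19, a neprilysin-like gene, had 55.5 (rank 1584) and ranked 4379 and 6448. Both overlapped the optimal list.

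The 45 coding regions were weak by comparison, with signals from 30.04 to 41.9 and a median of 32.1. The strongest lay in coding sequence at Adk3, an adenylate kinase gene, with a signal of 41.9 (rank 2328). It ranked 5371 in replicate 1 and had no overlapping row in replicate 3. The second, with 41.1, was nearest to the TSS of Nplp1, a neuropeptide-like precursor gene, and was the single coding region that overlapped the optimal list. The third was in Rim, a gene of the presynaptic active zone, with 39.8 (rank 2478), and ranked 15625 and 24410 in replicates 1 and 3. The fourth, in Ubr1, which encodes an N-end rule ubiquitin ligase, had 36.7, and the fifth, in the span of Atg18b, had 36.2. The median G and C content of the 201 bp around the summit was 59.7% for coding regions, against 36.8% for intronic, 35.8% for intergenic and 37.8% for TSS-proximal ones. For the 695 together it was 37.3%, between the 35.8% of the shared rows and the 42.8% of replicate 3 only.

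Few summits lay in untranslated or non-coding exons. In 3′ UTRs the strongest was in the span of Cam, the calmodulin gene, with a signal of 46.9, and it overlapped the optimal list, as did those at RSG7 with 36.2 and Ppa with 34.4. Those nearest to CG17290 and Pdha had 32.4 and 32.0. In 5′ UTRs the 4 were at DPCoAC with 33.4, COX7AL2 with 33.0, Stacl with 30.7 and EcR, the ecdysone receptor gene, with 30.5. In other exons the strongest were at lncRNA:CR44231 with 38.7, lncRNA:CR44953 with 36.3, lncRNA:CR46084 with 35.2, Dhit with 34.8 and lncRNA:CR43627 with 34.2.

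The intergenic regions were led by gol and CG43332, followed by CG4066 with 55.6 (rank 1579), lncRNA:CR44810 with 54.5 (rank 1626) and klg with 52.9 (rank 1700). The peak near CG4066 ranked 3880 in replicate 1 and was not listed in replicate 3, and it overlapped the optimal list. That at klg (3R:22886794-22887149), 12312 bp from the TSS of this immunoglobulin-family adhesion gene, was in neither other relaxed list and ranked 5284 in the pooled list.

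Most of the 695 were present further down the other lists. An overlapping row was found for 595 (85.6%, 82.8 to 88.1) in the relaxed list of replicate 1 and for 495 (71.2%, 67.7 to 74.6) in that of replicate 3. These lists cover 7.92% and 8.70% of the bases of the arms. The share of randomly placed regions of like length that would share a base with them is higher and was not computed. Both lists held a row for 458 regions (65.9%), that of replicate 1 alone for 137 (19.7%), that of replicate 3 alone for 37 (5.32%) and neither for 63 (9.06%, 7.04 to 11.4). That no such row ranked above 3647 follows from the rule.

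Where they were listed, their best ranks had a median of 5653 in replicate 1 and 9382 in replicate 3. Ranks up to 7292 in replicate 1 were reached by 369 (53.1%, 49.3 to 56.9), and in replicate 3 by 184 (26.5%, 23.2 to 29.9), and these intervals do not overlap. The median distance between summits was 42 bp to the row of replicate 1 and 59 bp to that of replicate 3. Only rows sharing a base were measured, and nearly all summits are peak middles. The overlap thus bounds these distances, of which the largest were 336 and 377 bp. By comparison, 77.2% of the 478 rows of replicate 1 only, and 34.5% of the 1125 of replicate 3 only, had a row in the relaxed list of replicate 2.

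**Figure D4:**
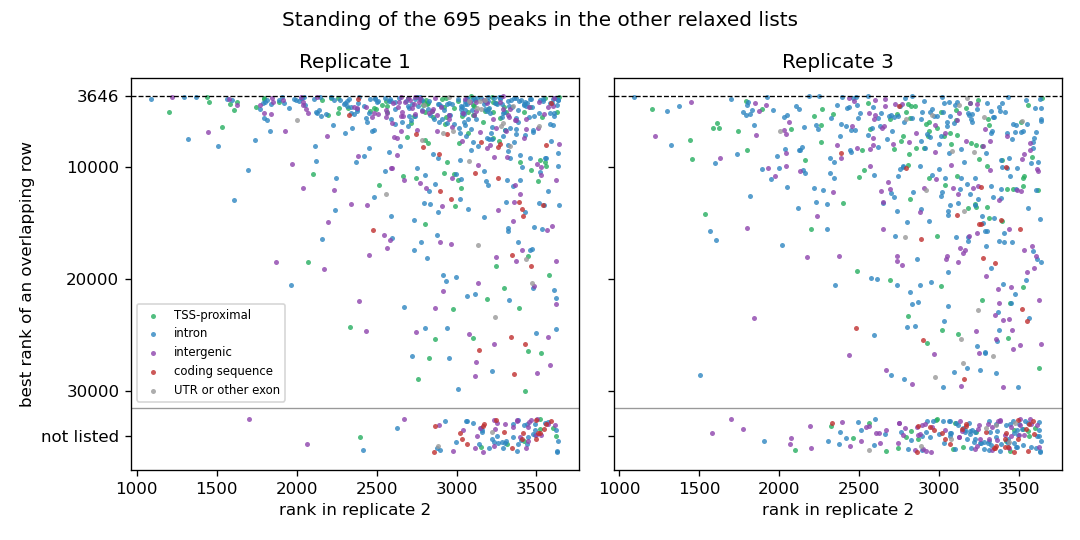
Rank of each of the 695 regions in replicate 2 (horizontal axis) and the best rank of an overlapping row in replicate 1 (left) or replicate 3 (right), coloured by genomic class. The dashed line marks rank 3646, above which no point can lie by the rule, and the band at the bottom holds the regions with no row, spread vertically for display. Points crowd toward the dashed line in replicate 1, with a median of 5653, and less so in replicate 3, with 9382.

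The pooled list, which draws on the reads of replicate 2 as well, held a row for 682 (98.1%), at ranks from 2096 to 21385 with a median of 4848. The optimal list held 137 (19.7%, 16.8 to 22.9), all in its lower part, at ranks 2096 to 3636 with a median of 3302. By comparison it held 29.9% of the rows of replicate 1 only and 21.9% of those of replicate 3 only. Without replicate 1 in the rule the optimal share was 55.5%. Of the 137, 18.98% were TSS-proximal, 54.7% intronic and 0.730% coding.

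Class and standing went together. TSS-proximal summits were 91 of the 458 listed in both other replicates (19.9%, 16.3 to 23.8) and 4 of the 63 listed in neither (6.35%, 1.76 to 15.5). Coding summits were 14 of 458 (3.06%, 1.68 to 5.08) and 15 of 63 (23.8%, 14.0 to 36.2). Read the other way, 93.2% of TSS-proximal, 87.3% of intronic, 83.7% of intergenic and 57.8% of coding regions had a row in replicate 1. In replicate 3 the same shares were 81.2%, 74.9%, 65.7% and 40%. Even the regions with a row in replicate 3 at rank 7292 or above were TSS-proximal in 22.3% (16.5 to 29.0), less than the 44.5% of shared rows in the rank range.

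**Figure D5:**
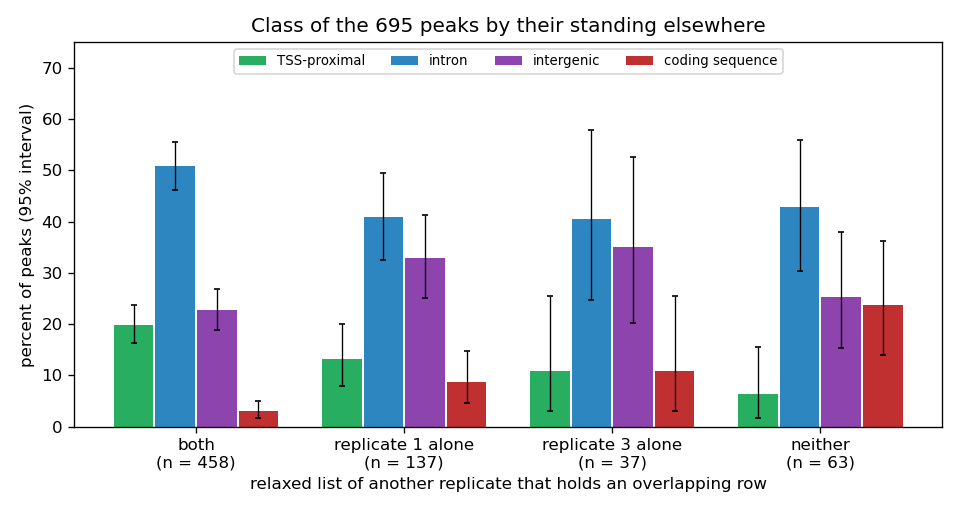
Percent of regions (vertical axis) in 4 genomic classes, for the regions with an overlapping row in the relaxed lists of both other replicates, of replicate 1 alone, of replicate 3 alone and of neither. Error bars are 95% exact intervals. The coding share is 3.06% where both lists hold the region and 23.8% where neither does.

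The 5 strongest regions in neither list were at klg, then nearest to CG13443 with 45.9 (intergenic, rank 2068), in coding sequence in the span of CG18304 with 35.4, in that of CG33309 with 35.4, and in an exon of lncRNA:CR46084 inside scrib, a cell polarity gene, with 35.2. All 5 had a row in the pooled list, at ranks from 5284 to 12681. Beyond those at klg and CG13443, none of the 63 exceeded a signal of 35.4 in replicate 2.

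The regions were spread over the genome. The arms X, 2L, 2R, 3L and 3R held 117, 117, 115, 165 and 180, and chromosome 4 held 1. In the same order of arms the shares were 16.8%, 16.8%, 16.5%, 23.7%, 25.9% and 0.144%. Among the shared rows they were 20.6%, 19.1%, 17.0%, 20.1%, 23.0% and 0.237%. The median distance between the summits of neighbouring regions was 54118 bp, and 10 had another within 1000 bp. A row of the 3646 of replicate 1 lay within 1000 bp of 49 summits, and of replicate 3 within 1000 bp of 43, so that most lay apart from the rows of those lists. Annotated transposable elements overlapped 7 (1.01%), against 0.847% of the shared rows. All but 1 had the summit within 1 base of the middle of the peak, which limits how finely it places a bound sequence.

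At the level of genes, 684 of 13945 protein-coding genes (4.9%) had a summit of the 695 in their span or within 2 kb, and 3371 (24.2%) had a shared one. Of the 684, 292 had a shared summit as well; the others had none. Nearby genes share peaks, and 159 of the 695 summits counted for at least 2 genes while 137 counted for none. Long genes were reached more often. The share was 1.87% of genes under 2 kb, 2.79% from 2 to 5 kb, 8.01% from 5 to 20 kb, 20.1% from 20 to 50 kb and 36.5% above 50 kb, and for shared rows it went from 15.4% to 57.0%. The longest gene of any type around an intronic summit had a median length of 34159 bp, against 30239 bp for shared rows. The median of all protein-coding genes, a set not limited to genes around an intronic summit, was 2166 bp. The counts for gene lists below are to be read against the 4.9% of all protein-coding genes. Each list's median span is given to name a length bin to set beside it. A list also holds genes of other bins, so gene lengths were not matched. No test was made of any list.

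The genes with most of these summits were Rbp6 with 4, and atos, fz2, Brd and heca with 3 each. Rbp6, which encodes an RNA-binding protein of the Musashi type, held no shared row. Its regions were all intronic, with signals of 40.7, 37.4, 35.5 and 31.3, and 3 of them were listed in replicate 1, at ranks 5976 to 8953, 1 in replicate 3 and 1 in neither. fz2 encodes a Wingless receptor and had intronic regions of 38.4, 32.3 and 30.8. They ranked 4069, 4225 and 5546 in replicate 1 and 6464, 12850 and 16720 in replicate 3. Brd is a short gene of the Bearded complex, whose products restrain Notch signalling, and its 3 lay at or near the TSSs of Brd and Ocho with signals of 36.6, 30.7 and 30.4. heca, the headcase gene, had 35.1, 32.4 and 29.8. At atos the strongest had 50.5 and overlapped the optimal list. E23, chas, NetA, Trim9 and Gbs-76A followed with 2 each, as did many other genes among the 78 with at least 2.

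Among genes of the EGF receptor pathway, its ligands and its feedback regulators, 5 of 19 (26.3%) had one of these regions and 13 had a shared row, at a median span of 14110 bp. The share was above the 8.01% of all genes of 5 to 20 kb, the bin of the median span. Some of the reached genes are longer, such as aop with 22271 bp and S with 28142 bp, so lengths were not matched. The locus of pnt itself held 1, in an intron 5625 bp from a TSS (3R:23300685-23301040), with a signal of 47.9 in replicate 2 (rank 1951), 27.1 in replicate 1 (rank 4703) and 20.01 in replicate 3 (rank 11036). It overlapped the optimal list at rank 3279. aop, which encodes the repressor Yan, had an intronic one with signals of 55.3 (rank 1597), 30.4 (rank 4006) and 21.6 (rank 9609) in the same order, and it too was optimal, at rank 2800. The peak at ru, a rhomboid protease gene of ligand processing, had 45.3 and lay inside the longer gene Ptp61F. S, the chaperone gene Star, had 2, the stronger with 33.4. Of the Ras and MAP kinase cassette only Dsor1, the MAP kinase kinase, was reached among 14 genes (7.14%, median span 6898.5 bp), with 36.4, and 7 had a shared row. The nearest TSS to the Dsor1 peak was that of another gene, CG17754, 705 bp away. Of the 9 ETS family genes 3 were reached (33.3%, median span 11829 bp), which were aop, pnt and the ecdysone-induced Eip74EF with 33.5. A shared row was likewise found at 3 of the 9.

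Of 25 genes of the Wingless, Hedgehog and Dpp pathways 6 were reached (24%, median span 13588 bp) and 18 had a shared row. This was also above the 8.01% of genes of 5 to 20 kb, the bin of the median span. Some of the reached genes are longer, such as fz2 with 94399 bp and arr with 29590 bp. The strongest were at nkd, a Wingless antagonist, with 42.5, at fz2, at the co-receptor gene arr with 34.2 and at shn, a nuclear effector of Dpp, with 33.6. Of 21 Notch pathway genes 4 were reached (19.05%, median span 3847 bp, against 2.79% of genes of 2 to 5 kb), which were Brd, the co-activator mam with 33.2, the receptor N with 31.7 and the glycosyltransferase fng with 30.5. The mam peak was in neither other list. Of these genes N spans 37352 bp and Brd 532 bp, both outside the bin of 2 to 5 kb, so lengths were not matched. A shared row was found at 12 of the 21 Notch pathway genes (57.1%), against 24.6% of genes of 2 to 5 kb. The list was thus above its bin in the shared rows as well. Of 17 FGF and tracheal genes 2 were reached (11.8%, median span 14764 bp), the FGF receptor adaptor stumps with 40.1 and the tracheal regulator trh with 39.3, both TSS-proximal. A shared row was found at 8 of the 17.

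Of 20 segmentation genes 2 were reached (10%, median span 2941 bp), slp2 with 36.8 and inv with 31.4. Of 8 Hox genes 3 were reached (37.5%, median span 30563 bp, against 20.1% of genes of 20 to 50 kb). The Hox regions were at Antp with 36.7, Ubx with 33.8 and lab with 30.1, and the last was in coding sequence and in neither other list. Antp spans 102976 bp and so lies above that bin. Of 21 glial, midline and neuroblast genes 3 were reached (14.3%, median span 3831 bp). nerfin-1, a zinc finger gene of neuroblasts, had 46.3 and ranked 4166 in replicate 1 and 8685 in replicate 3. sim, the master regulator of the midline, had 40.5 and ranked 4588 and 3798, and pdm2 had 31.1 and was in neither. Of 28 mesoderm, heart and muscle genes 3 were reached (10.7%, median span 6266.5 bp), twi with 35.7, kirre with 34.5 and Mef2 with 33.9. The nearest TSS to the twi peak was that of CG9896, 3220 bp away. Of 12 hemocyte genes 2 were reached (16.7%, median span 14998 bp), ush with 46.1 and the receptor gene Pvr with 39.8. Shared rows were found at 5 of the 20 segmentation genes and 2 of the 8 Hox genes. They were also found at 7 of the 21 glial, midline and neuroblast genes. For the mesoderm, heart and muscle list it was 12 of 28, and for the hemocyte list 4 of 12. None of the 12 epidermal and cuticle regulators (median span 7291.5 bp) or the 11 apoptosis genes (median span 2524 bp) was reached, while 5 and 6 of them had a shared row. Of all protein-coding genes 4.9% were reached and 24.2% had a shared row. A count of 0 in lists this small is thus near the share of all genes.

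The ecdysone response and neuronal surface lists hold long genes. Of 12 ecdysone response genes 5 were reached (41.7%, median span 55678.5 bp), the strongest at Eip93F with 41.2, Hr3 with 41.1, Eip74EF with 33.5 and Eip78C with 32.6, and 8 had a shared row. Of 90 genes taken by name as neuronal surface recognition genes 24 were reached (26.7%, median span 36154.5 bp) and 25 had a shared row. They were led by Ten-a, a teneurin, with 47.2, Ptp61F with 45.3, the receptor phosphatase gene Ptp10D with 45.2 and Fas1, a fasciclin, with 44.9. The name pattern also takes Ptp61F, which encodes a non-receptor phosphatase. Genes of 20 to 50 kb and above 50 kb were reached in 20.1% and 36.5%, so the neuronal share lay between them and the ecdysone share above both. Lists of short genes were reached little, with 3 of 180 chemosensory receptor genes (1.67%, median span 1691.5 bp, Gr89a with 46.2, Ir67b with 33.0 and Or22c with 30.9) and 1 of 133 cuticle protein genes (0.752%, median span 941 bp), Cpr73D, whose peak is that at Ogdh. Of 89 ion channel genes 4 were reached (4.49%, median span 5720 bp), ppk8 with 42.1, Ca-alpha1T with 41.5, Shab with 33.2 and trpl with 31.7. Shared rows were found at 6 of the chemosensory receptor, 3 of the cuticle protein and 17 of the ion channel genes. The peaks of ppk8 and Or22c counted also for DIP-alpha and dpr3 of the neuronal surface list. The nearest TSS to the Gr89a peak was that of Cad89D. With few genes in most lists, and nested genes that share a peak, these counts are descriptions only.

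Short sequence patterns were searched on both strands of the 201-bp windows. CCGGAA was found in 40 of 695 windows (5.76%, 4.14 to 7.76), against 3.08% (2.49 to 3.77) of shared rows and 6.11% of all 201-bp tiles of the arms. CAGGAA was found in 8.63%, 6.07% and 9.97% of the same sets. The first pattern reversed without complementing, AAGGCC, has the same base composition and gave 5.47%, 3.42% and 6.18%. The shares of both ETS forms in these windows were not above those of the tiles. Within introns CCGGAA was in 6.34% (3.97 to 9.53) of the 331 windows and 2.59% (1.73 to 3.72) of the 1081 of shared rows, while AAGGCC was in 4.83% (2.79 to 7.73) and 3.61% (2.58 to 4.90). The intervals of CCGGAA do not overlap there and those of AAGGCC do, and the difference between the patterns was not tested. In the intergenic windows of the 695 and of the shared rows, CCGGAA was in 3.93% and 3.44%, and AAGGCC in 5.62% and 3.21%. CAGGAA was in 7.25% and 6.48% of the intronic windows and in 10.7% and 5.28% of the intergenic ones, in the same order. In each of these pairs the 95% intervals overlap. With 1823 rows taken per replicate, CCGGAA was in 2.56% and AAGGCC in 4.76% of the 273 windows. With 7292 rows the shares were 7.98% and 7.47%. The core GGAA alone was in 77.7% of the 695 windows, against 75.2% of shared rows and 80.3% of tiles.

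The pattern TATCGATA, bound by the promoter factor DREF, was in 4 windows (0.576%, 0.157 to 1.47), in 2.00% of shared rows, in 4.39% of those of replicate 1 only, in 6.13% of those of replicate 3 only and in 0.564% of tiles. Within introns it was in 1 of 331 windows of the 695 and 2 of 1081 of shared rows. GAGAG was in 23.6%, 24.1% and 21.5% of the 695, the shared rows and the tiles, TGATAA in 14.7%, 16.2% and 12.1%, and TAATTA in 14.1%, 15.6% and 12.5%. A match is a match of letters and not a bound site.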

How the data were processed

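Anti-GFP ChIP-seq peaks of 3 biological replicates in 1 group were analysed. Relaxed lists were called from each replicate's alignment against 1 control and from the pooled alignments, and the optimal list was derived from them, per the deposited file notes. For the aligner, the peak caller and the discovery rate threshold the entry is: not given in the sources used here. Signal as deposited by the authors is a score with no stated scale, and it ordered the rows of each list. The authors give significance as −log10 of a q-value, and the deposited summit is an offset from the peak start. Depth is unknown.

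Overlap meant at least 1 shared base. Summits were classed in the order TSS-proximal (within 500 bp), coding, 5′ UTR, 3′ UTR, other exon, intron and intergenic, with the Ensembl release 115 annotation on dm6, and transposable elements were not counted as genes. A gene was tied to a summit in its span or within 2 kb. Shares have 95% Clopper-Pearson intervals. No test of chance was made. Python 3.11.15, numpy 2.4.6, scipy 1.17.1 and pandas 2.3.3 were used. The member rule, the overlap and the count of summits per gene were tested on made-up intervals. Class assignment was not tested in this way. The members and the 19 gene lists and 17 patterns were chosen with earlier results of these data known. The result of 1 of the lists is not reported here. Named genes were those nearest to the 10 strongest regions, the 5 strongest per class, in neither other list and in the optimal list, the 10 genes with most regions, pnt, and up to 4 genes per list. The Rim and klg sequences were printed beyond this rule. Alternatives changed the rows taken, the ranking column, the overlap, the replicates, the TSS window, the gene distance, the pattern window and the build.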

Additional observations from a re-analysis of the deposited data

How the results depend on the processing

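The count, the listed shares and the number of genes moved widely with how many rows were taken, and the TSS-proximal share most with the TSS window. With 1823 rows per replicate there were 273 regions, of which 29.7% were TSS-proximal, 99.6% were in the relaxed list of replicate 1, 97.4% in that of replicate 3, 99.6% in the pooled list and 96.7% in the optimal list, with 339 genes. With 7292 rows these were 2732 regions, 11.7%, 47.5%, 29.1%, 75.04%, 0.110% and 2161 genes. Set against 1 other replicate only, there were 808 (without replicate 3) to 1471 (without replicate 1) regions, 20.5% to 25.5% TSS-proximal, 87.0% to 93.2% listed in replicate 1, 75.2% to 83.4% in replicate 3, 28.2% to 55.5% optimal and 824 to 1500 genes. A TSS window of 200 bp gave 7.05% and one of 1000 bp 28.9%. Removing rows only at 50% of their own length gave 23.9% optimal, counting a region as listed only at 50% of its length gave 81.9% for replicate 1 and 65.6% for replicate 3, and the gene span alone gave 408 genes. The 237 regions with a −log10 q of at least 2, a limit chosen after seeing the data, were 97.5% listed in replicate 1, 82.7% in replicate 3, 99.6% pooled and 44.7% optimal, with 231 genes. Ranking by significance gave 701 regions with 17.0% TSS-proximal, and the same rule on dm3 gave 669. Rows tied in significance were ordered by signal. All 1125 rows of replicate 3 only had the same value, 3.89, so in that replicate this ranking largely repeated the one by signal. Its closeness to the main result was thus in part fixed in advance. No paired analysis was possible because there was 1 group. Depth is unknown, so a region without a row in another list is one not listed there, and not one shown to be unbound.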
